A study of Mus musculus with 4 samples.

Results

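Proliferation of neonatal splenic polymorphonuclear myeloid-derived suppressor cells (PMN-MDSCs), the suppressive neutrophil-like cells of early life, was read from 39 genes of DNA replication and mitosis. The genes form a named list and were matched by gene symbol. All 39 were found among the 28585 genes listed, each on a single gene identifier. RNA was sequenced from 4 libraries of PMN-MDSCs taken from pup spleens at postnatal day 7, each made from 300000 cells sorted as CD11b+ Ly6C lo/- Ly6G+. The 2 Dhps cko libraries are from Dhps fl/fl Lysm cre pups, in which Cre is expressed from the *Lysm* (*Lyz2*) locus and deletes floxed *Dhps* in neutrophils, monocytes and macrophages. The 2 Dhps flox libraries are from Dhps fl/fl pups, which carry the same floxed alleles without Cre. *Dhps* encodes deoxyhypusine synthase, which uses spermidine to modify the translation factor eIF5A. The sources do not say whether the replicates of a genotype came from separate pups or pools, so p-values measure only the spread between these libraries, which may be technical.

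A dividing cell first loads the MCM helicase on its replication origins with the help of CDC6 and CDT1, then copies its DNA while nucleotide supply enzymes are made, and then builds a spindle under the control of cyclin A, cyclin B and the kinases CDK1, PLK1, AURKA and AURKB. The transcripts of these proteins rise and fall with the cycle. E2F factors drive many S phase genes, and the B-MYB and FOXM1 complexes drive many G2 and M genes. In the neutrophil lineage, division takes place in precursors (promyelocytes, myelocytes and pre-neutrophils), while mature neutrophils no longer divide. Levels of these transcripts in a sorted neutrophil population therefore reflect how many of its cells are dividing and how much of each transcript such a cell holds, and bulk RNA cannot tell these apart.

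The values are FPKM, fragments of a gene divided by transcript length and by sequencing depth, so that levels of different genes can be compared. Dhps cko libraries held 2.38 and 2.59 FPKM of *Dhps* itself, and Dhps flox libraries 3.57 and 3.11 FPKM. The transcript was thus still present in Dhps cko, at 0.744 times the Dhps flox mean (log2 fold change -0.41, 95% interval -0.75 to -0.07, limma unadjusted p = 0.0256, adjusted p = 0.629), and a value for the whole gene does not show which exons it covers. The FPKM of a library summed to between 304281 and 319286, and the depth estimated from the spacing of low values was between 2.99e+07 and 3.195e+07 mapped fragments. The sort was reflected in the 12 defining neutrophil markers, whose means ran from 172 FPKM (*Cxcr2*) to 27280 FPKM (*Ngp*). *Ly6g* was at 222 and 242 FPKM in Dhps cko and at 195 and 185 FPKM in Dhps flox. Of 5 stem and progenitor cell markers, *Cd34*, *Flt3*, *Gata2* and *Meis1* were under 0.5 FPKM in every library, and *Kit* was between 3.50 and 4.69 FPKM. Primary granule genes, which mark promyelocytes, were present, with *Elane* between 9.76 and 23.8 FPKM and *Mpo* between 7.56 and 17.5 FPKM. Transcripts of other cell types were also present. The 12 erythroid markers summed to between 624 and 928 FPKM, mostly globins, with *Klf1* between 0.15 and 1.07 FPKM. The 10 monocyte and macrophage markers summed to between 322 and 394 FPKM. Of this sum, *Ly6c2* alone held between 158 and 192 FPKM, and the sort admitted cells low in Ly6C.

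Transcripts of all 39 genes were present in every library of the sorted cells. All 39 genes passed the minimum of a mean of 0.1 FPKM that left 17948 genes for testing, and each was in the upper part of the expression range, at or above the 50th percentile of the mean FPKM. At or above the 75th percentile were 32 genes, at or above the 90th 18 genes and at or above the 95th 9 genes. The median of the means was 20.1 FPKM, against 1.83 FPKM over all genes tested, and 29 genes were at or above 10 FPKM in every library. Together they held 1102 and 1010 FPKM in the Dhps cko libraries and 1061 and 1096 FPKM in the Dhps flox libraries. That is between 0.316% and 0.36% of all FPKM. The libraries include no reference of adult or non-dividing neutrophils, so these ranks do not measure what share of the cells was dividing.

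The most abundant of them was *Mki67*, which encodes the Ki-67 protein that coats mitotic chromosomes and is used as a stain for cycling cells. Its gene spans 135689784 to 135716361 of chromosome 7 (GRCm38). *Mki67* was at 103 and 89.96 FPKM in Dhps cko and at 107 and 108 FPKM in Dhps flox, the 98.2nd percentile of the genes tested. *Stmn1*, a tubulin-binding protein that loosens microtubules in dividing cells, followed at 72.3 and 70.5 FPKM in Dhps cko and 71.8 and 61.6 FPKM in Dhps flox. *Rrm2*, *Top2a*, *Ccnb2*, *Cdc20*, *Ccna2*, *Pcna* and *Ube2c* completed the 9 genes above the 95th percentile. The lowest was the helicase subunit gene *Gins2*, with a mean of 1.93 FPKM, followed by *Tyms* at 3.69, *Cdc6* at 4.55, *Ccne1* at 4.96 and *Cdt1* at 7.38 FPKM.

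Genes of mitosis were higher than genes of S phase in FPKM. The 22 mitosis genes had a median of 29.8 FPKM and the 17 genes of the G1 to S transition and S phase a median of 10.1 FPKM. A mean of at least 20 FPKM was reached by 15 of the 22 mitosis genes and by 5 of the 17 S phase genes (*Mcm4*, *Mcm5*, *Mcm7*, *Pcna* and *Rrm2*). The plot of levels by library shows this order, with the 4 libraries of each gene close together.

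**Figure D1:**
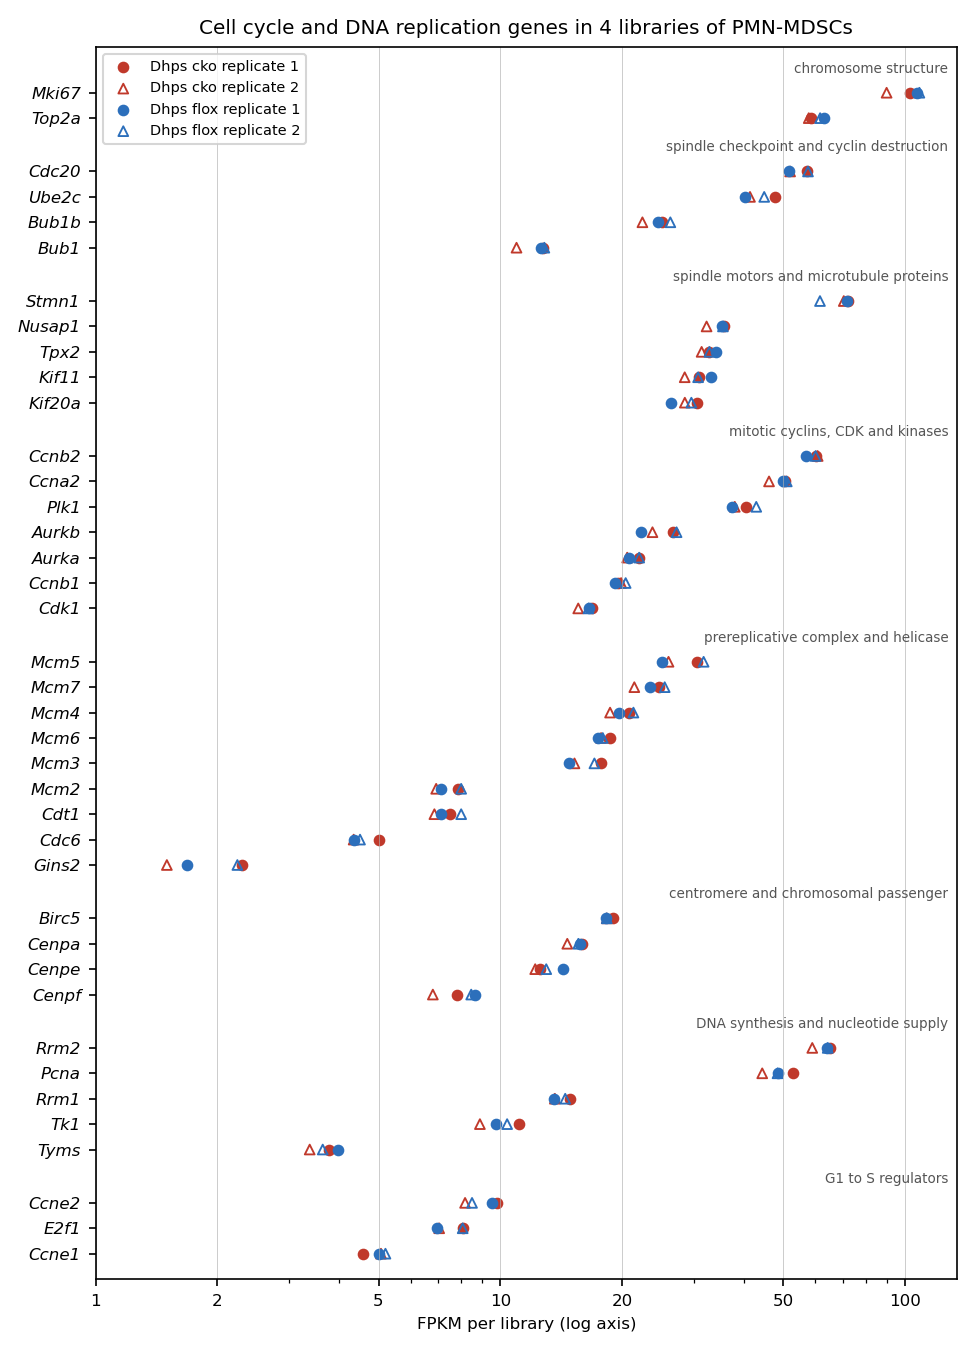
FPKM of the 39 genes in each library on a log axis, grouped by role; filled circles are replicate 1 and open triangles replicate 2 of Dhps cko (red) and Dhps flox (blue). Levels run from *Gins2* (1.5 to 2.30 FPKM) to *Mki67* (89.96 to 108 FPKM), and for 35 of 39 genes the highest library is under 1.25 times the lowest.

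The promoters of these genes were searched for motifs known for their phase. Windows from 250 bases before to 50 bases after the start were taken from RefSeq (GRCm38.p6). There were 32 windows for 31 of the 39 genes, with 8 genes not covered, and 32851 windows in all. The search covered both strands and looked for the CCAAT box (CCAAT), which binds NF-Y, the core of the cell cycle genes homology region (TTTGAA), which binds the LIN54 subunit of the B-MYB and DREAM complexes, and 4 forms of the E2F site (TTTGGCGC, TTTCCCGC, TTTCGCGC and TTTGCCGC). The CCAAT box was in 75% of the members' windows and in 37.4% of all windows, TTTGAA in 40.6% and 17.9%, and an E2F form in 21.9% and 2.26%. Within the members, TTTGAA was in 12 of 17 mitosis windows and 1 of 15 S phase windows, whereas an E2F form was in 6 of 15 S phase windows and 1 of 17 mitosis windows. These matches describe letters in a window and do not show binding, and the shares over all windows were not matched for base composition.

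Printed here are the windows of the mitosis genes and of the S phase genes with the largest differences between genotypes among those in the table, 5′ to 3′ on the strand of the gene, with matches in capitals. *Cenpf* (chr1:189688037-189688336, minus strand) has CCAAT at 132 and 71 bases before the start and TTTGAA from base 3 after it. *Mki67* (chr7:135716330-135716629, minus strand) has 3 CCAAT boxes, the middle of them reversed as ATTGG, and TTTGAA at 116 and 98 bases before the start. *Mcm7* (chr5:138171834-138172133, minus strand, the upstream of its 2 windows) has 3 CCAAT boxes and E2F forms on either strand, and its TTTCGCGC overlaps the last CCAAT. The other *Mcm7* window, not printed, has 1 CCAAT box, no TTTGAA and no E2F form. *Tyms* (chr5:30073576-30073875, minus strand) has none of these letters.
Cenpf: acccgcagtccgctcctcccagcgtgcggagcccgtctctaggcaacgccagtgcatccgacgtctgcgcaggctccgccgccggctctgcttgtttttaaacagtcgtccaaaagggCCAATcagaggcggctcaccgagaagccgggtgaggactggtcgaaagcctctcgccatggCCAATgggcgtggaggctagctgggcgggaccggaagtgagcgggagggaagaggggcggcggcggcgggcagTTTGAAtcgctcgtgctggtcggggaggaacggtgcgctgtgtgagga
Mki67: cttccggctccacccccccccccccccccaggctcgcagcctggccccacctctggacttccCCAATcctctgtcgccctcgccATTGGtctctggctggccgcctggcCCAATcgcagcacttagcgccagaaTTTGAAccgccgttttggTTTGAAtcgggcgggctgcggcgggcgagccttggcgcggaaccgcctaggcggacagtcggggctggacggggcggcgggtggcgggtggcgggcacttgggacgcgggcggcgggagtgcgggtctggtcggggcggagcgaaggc
Mcm7: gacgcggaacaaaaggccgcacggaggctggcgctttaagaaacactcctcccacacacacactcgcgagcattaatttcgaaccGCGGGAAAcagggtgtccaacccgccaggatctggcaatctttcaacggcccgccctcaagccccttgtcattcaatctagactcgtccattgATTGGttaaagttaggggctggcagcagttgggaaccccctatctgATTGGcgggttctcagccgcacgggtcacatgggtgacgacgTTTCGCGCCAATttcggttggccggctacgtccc
Tyms: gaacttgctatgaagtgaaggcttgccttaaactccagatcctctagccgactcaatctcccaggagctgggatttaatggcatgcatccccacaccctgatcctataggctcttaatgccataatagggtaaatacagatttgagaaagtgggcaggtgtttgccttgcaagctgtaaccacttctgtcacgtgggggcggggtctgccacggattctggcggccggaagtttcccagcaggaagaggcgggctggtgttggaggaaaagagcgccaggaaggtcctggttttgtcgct

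The comparison of Dhps cko with Dhps flox asks whether these genes differ with the *Dhps* genotype of myeloid cells, in libraries where the *Dhps* transcript itself was reduced only in part. None of the 39 genes had an adjusted p under 0.05 by limma on log2(FPKM + 0.1), where 0.00557% of all genes tested did (1 of 17948). None had an unadjusted p under 0.05 either, where 7% of all genes tested did. The log2 fold changes of Dhps cko over Dhps flox ran from -0.23 (*Cenpf*) to 0.10 (*Stmn1*), with a median of -0.03, against 0.01 over all genes tested. In linear terms the mean of Dhps cko was between 0.856 and 1.07 times that of Dhps flox.

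The intervals limit how large a difference these libraries leave room for. The 95% interval lay within a 1.5-fold difference in either direction (0.58 on the log2 scale) for 38 of 39 genes, where 45.3% of all genes tested and 84.9% of the genes in the same FPKM range met this. The exception was *Gins2*. Within a 1.25-fold difference (0.32 on the log2 scale) were the intervals of 24 of the 39, where 20.3% of all genes tested and 40.3% of those in the same FPKM range were.

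By direction, 13 genes were higher in Dhps cko and 26 lower, where 52.2% of all genes tested were higher and 47.8% lower. Scaled to TPM, 7 of the 39 were higher, and with size factors or quantile normalization 11. This split moved with single libraries, with 6 of 39 higher without Dhps cko replicate 1, 27 without Dhps cko replicate 2, 7 without Dhps flox replicate 1 and 20 without Dhps flox replicate 2. The genotypes did not overlap for 5 of the 39, *Cenpe*, *Cenpf*, *Tpx2*, *Mki67* and *Top2a*, all lower in Dhps cko, where 16% of all genes tested were lower without overlap and 20% higher. For 35 of the 39, the replicates of a genotype differed by more than the genotypes did, against 75.2% of all genes tested. The exceptions were *Cenpe*, *Cenpf*, *Tpx2* and *Top2a*.

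**Figure D2:**
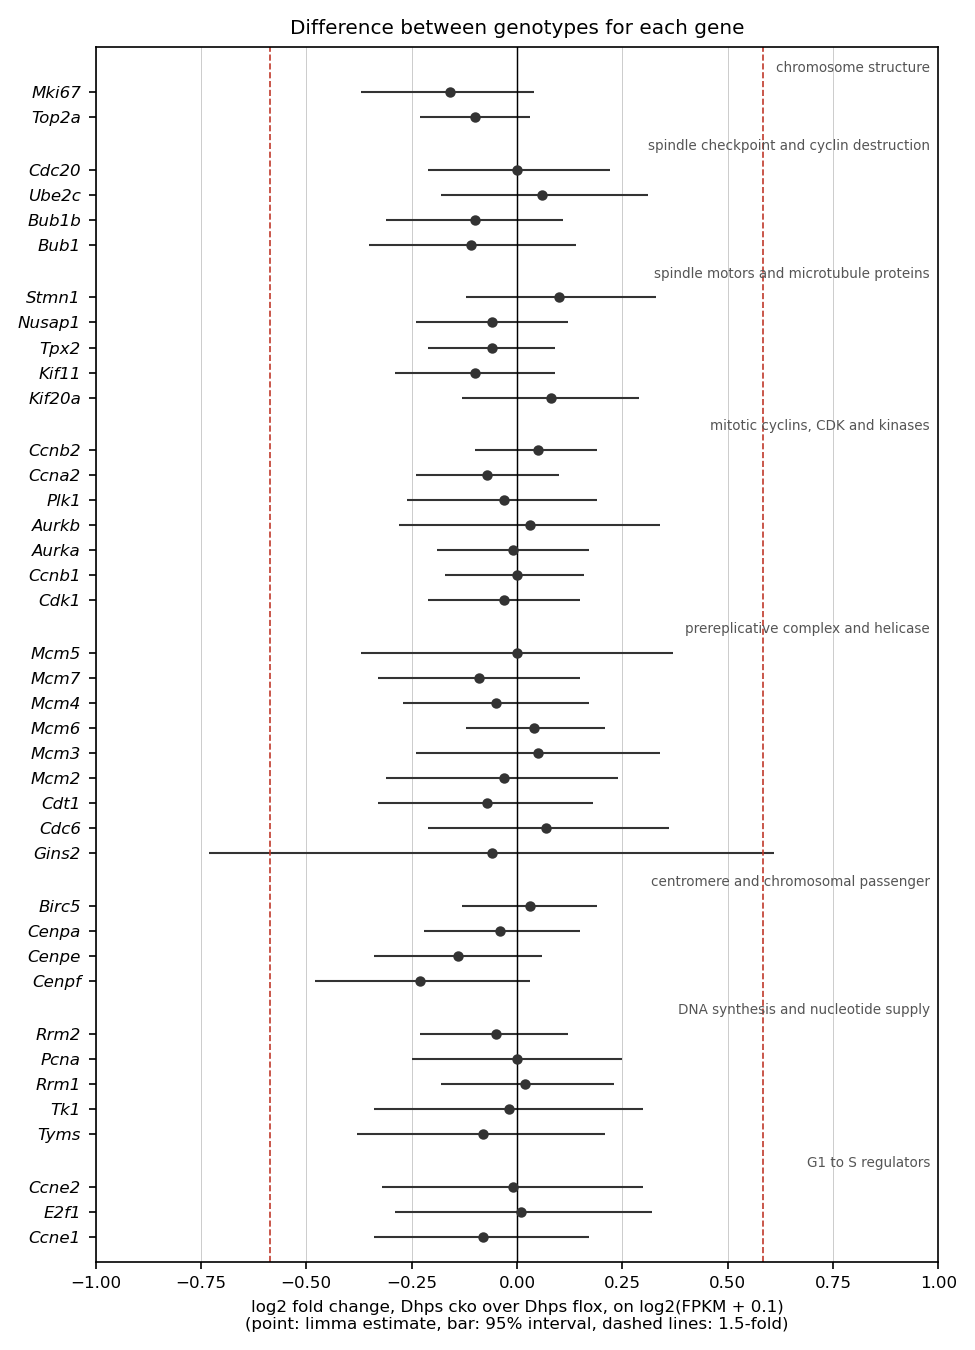
Log2 fold change of Dhps cko over Dhps flox for the 39 genes, grouped by role (points, limma estimate on log2(FPKM + 0.1); bars, 95% interval; dashed lines, a 1.5-fold difference). All intervals include 0, and that of *Gins2* (-0.73 to 0.61) leaves the dashed lines on both sides.

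The prereplicative complex and helicase were represented by 9 genes, of which 3 were higher and 6 lower in Dhps cko, their median log2 fold change being -0.03 and their lowest limma adjusted p 0.883. *Mcm2*, a subunit of the MCM ring that unwinds DNA at the fork, was at 7.84 and 6.94 FPKM in Dhps cko and at 7.14 and 8.0 FPKM in Dhps flox. *Mcm5*, the most abundant subunit, was at 30.6 and 26.0 FPKM in Dhps cko and at 25.1 and 31.8 FPKM in Dhps flox. The genotypes overlapped for both, and the Dhps cko values of *Mcm5* lay inside those of Dhps flox. The log2 fold changes were -0.03 (SE 0.11) for *Mcm2* and 0.00 (SE 0.14) for *Mcm5*. The other subunits *Mcm3*, *Mcm4*, *Mcm6* and *Mcm7* were between 14.8 and 25.5 FPKM in every library, with log2 fold changes from -0.09 to 0.05. Transcript levels per length thus differed among the 6 subunits of the ring, with *Mcm2* lowest.

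*Cdc6*, a loader of the MCM ring, was at 5.00 and 4.34 FPKM in Dhps cko and at 4.35 and 4.50 FPKM in Dhps flox (log2 fold change 0.07, 95% interval -0.21 to 0.36). *Cdt1*, its partner in loading, was at 7.51 and 6.87 FPKM in Dhps cko and at 7.14 and 8.0 FPKM in Dhps flox (-0.07, -0.33 to 0.18). Both genotypes overlapped for each of them. *Gins2*, part of the GINS complex that activates the helicase, was at 2.30 and 1.5 FPKM in Dhps cko and at 1.68 and 2.24 FPKM in Dhps flox. Its log2 fold change of -0.06 had the widest interval of the list (-0.73 to 0.61), at about 182 to 287 fragments per library by the depth estimate. In GENCODE M21, 67.3% of the exon bases of *Gins2* are shared with other genes, the largest overlap being with *Gse1* on the opposite strand. Use of strand in counting is not given in the sources used here, so reads of these genes cannot be told apart. The same holds in part for *Kif20a* (29.3% shared, largest overlap with *Cdc23*), *Ube2c* (22.8%, *Tnnc2*) and *Ccne2* (17.4%, *Ints8*). It also holds for *Mcm7* (12.6%, *Ap4m1*), *Ccna2* (12.5%, *Exosc9*) and *Plk1* (7.09%, *Gm44985*). Each gene named in parentheses has the largest overlap and lies on the opposite strand.

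Of the 5 genes of DNA synthesis and nucleotide supply, 2 were higher and 3 lower in Dhps cko. *Pcna* (chromosome 2 of GRCm38, 132249162 to 132253314) encodes the sliding clamp of the DNA polymerases. It was at 52.9 and 44.3 FPKM in Dhps cko and at 48.5 and 48.4 FPKM in Dhps flox, so that the Dhps cko libraries lay on either side of Dhps flox (log2 fold change 0.00, SE 0.10). The sign of this value was negative under TPM, size factor and quantile scaling, at -0.04 to -0.01. *Rrm2*, the regulated subunit of ribonucleotide reductase, was at 65.2 and 58.9 FPKM in Dhps cko and at 64.2 and 64.4 FPKM in Dhps flox (-0.05, SE 0.07). *Rrm1*, the large subunit, was far lower, between 13.5 and 14.8 FPKM in every library. *Tyms*, thymidylate synthase, was at 3.78 and 3.38 FPKM in Dhps cko and at 3.96 and 3.64 FPKM in Dhps flox (-0.08, SE 0.12), and *Tk1*, the salvage enzyme thymidine kinase, was between 8.90 and 11.1 FPKM. The pseudogenes *Pcna-ps2* and *Tyms-ps* are listed beside their parent genes, and the sources do not say how reads shared by such copies were assigned.

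The 3 regulators of the G1 to S transition were among the lower genes of the list. *Ccne1* and *Ccne2* encode the E cyclins that activate CDK2 at the start of S phase. *Ccne1* was at 4.58 and 5.07 FPKM in Dhps cko and at 5.01 and 5.20 FPKM in Dhps flox (log2 fold change -0.08, SE 0.10). *Ccne2* was at 9.80 and 8.18 FPKM in Dhps cko and at 9.55 and 8.51 FPKM in Dhps flox (-0.01, SE 0.12). The genotypes overlapped for both. *E2f1*, which switches on S phase genes, was between 6.96 and 8.09 FPKM.

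Among the 7 mitotic cyclins and kinases, 2 were higher and 5 lower, with a median log2 fold change of -0.01. *Ccna2*, cyclin A of S phase and G2, was at 50.4 and 46.1 FPKM in Dhps cko and at 49.9 and 51.0 FPKM in Dhps flox (-0.07, SE 0.07). *Ccnb1*, a cyclin of CDK1 at entry into mitosis, was at 19.6 and 19.9 FPKM in Dhps cko and at 19.2 and 20.4 FPKM in Dhps flox. *Ccnb2* was at 60.1 and 60.8 FPKM in Dhps cko and at 56.9 and 60.1 FPKM in Dhps flox (0.05, SE 0.06). *Cdk1*, the kinase that these cyclins activate, was at 16.8 and 15.6 FPKM in Dhps cko and at 16.5 and 16.5 FPKM in Dhps flox. Replicates lay close together for both, and the 95% intervals were -0.17 to 0.16 for *Ccnb1* and -0.21 to 0.15 for *Cdk1*. *Ccnb2* was over 50 FPKM in every library and *Ccnb1* under 21 FPKM. The kinase genes *Plk1*, *Aurka* and *Aurkb* were between 20.6 and 42.9 FPKM, with log2 fold changes from -0.03 to 0.03.

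The spindle checkpoint and cyclin destruction genes were split, with 2 higher and 2 lower. *Cdc20*, the activator of the anaphase-promoting complex, was at 57.3 and 52.0 FPKM in Dhps cko and at 51.5 and 57.5 FPKM in Dhps flox (log2 fold change 0.00, SE 0.08, and negative under TPM, size factor and quantile scaling). *Bub1*, a checkpoint kinase, was at 12.7 and 11.0 FPKM in Dhps cko and at 12.6 and 12.8 FPKM in Dhps flox, where only Dhps cko replicate 2 stood apart (-0.11, SE 0.09). *Bub1b*, which holds CDC20 in check, was between 22.4 and 26.3 FPKM, and *Ube2c*, the ubiquitin-conjugating enzyme of the anaphase-promoting complex, between 40.3 and 47.6 FPKM.

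The single gene with the largest difference of the list was in the centromere group. The 4 genes of that group had a median log2 fold change of -0.09, and the 2 chromosome structure genes had -0.13. *Cenpf*, a large protein of the outer kinetochore, was at 7.83 and 6.81 FPKM in Dhps cko and at 8.64 and 8.47 FPKM in Dhps flox. Both Dhps cko libraries were lower, with a log2 fold change of -0.23 (95% interval -0.48 to 0.03, unadjusted p = 0.0688, limma adjusted p = 0.751). The value was -0.13 without Dhps cko replicate 2 and -0.32 without Dhps cko replicate 1. *Cenpe*, the kinetochore motor, was at 12.5 and 12.2 FPKM in Dhps cko and at 14.3 and 13.0 FPKM in Dhps flox, again without overlap (-0.14, adjusted p = 0.779, and -0.07 without Dhps flox replicate 1 or -0.21 without Dhps flox replicate 2). *Cenpa*, the centromeric histone, was between 14.6 and 16.0 FPKM. *Birc5*, survivin of the chromosomal passenger complex, was at 19.0 and 18.3 FPKM in Dhps cko and at 18.2 and 18.3 FPKM in Dhps flox, and its highest library was 1.04 times its lowest.

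Of the spindle motors and microtubule proteins, *Stmn1* (chromosome 4 of GRCm38, 134468320 to 134473843) had the largest positive log2 fold change of all 39, at 0.10 (SE 0.09, adjusted p = 0.839). Only Dhps flox replicate 2 was lower than the other 3 libraries, and without it the value was -0.01, against 0.21 without Dhps flox replicate 1. *Kif11*, the motor that pushes spindle poles apart, *Kif20a*, a motor of cytokinesis, *Tpx2*, which activates AURKA, and *Nusap1*, which bundles spindle microtubules, were between 26.4 and 35.6 FPKM in every library, with log2 fold changes from -0.10 to 0.08.

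The chromosome structure genes were both lower in Dhps cko without overlap, where 16% of all genes tested were. *Mki67* had a log2 fold change of -0.16 (95% interval -0.37 to 0.04, adjusted p = 0.766), and Dhps cko replicate 2 stood lowest, at 89.96 FPKM against 103 to 108 FPKM in the other libraries. Without that library the value was -0.07, and without Dhps cko replicate 1 it was -0.26. *Top2a*, the topoisomerase that untangles sister chromatids, was at 58.4 and 57.8 FPKM in Dhps cko and at 63.0 and 61.6 FPKM in Dhps flox (-0.10, -0.23 to 0.03, adjusted p = 0.773). Its gene spans 98992943 to 99024189 of chromosome 11 (GRCm38).

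Differences between libraries of the same genotype followed a pattern. Dhps cko replicate 1 was above Dhps cko replicate 2 for 36 of 39 genes, where 55% of all genes tested and 57.5% of those in the same FPKM range were. The exceptions were *Ccne1*, *Ccnb1* and *Ccnb2*. Dhps flox replicate 2 was above Dhps flox replicate 1 for 28 of 39 genes, where 48.9% of all genes tested were. The lowest library was Dhps cko replicate 2 for 24 genes and Dhps flox replicate 1 for 13. The 9 prereplicative complex and helicase genes all followed both patterns, with sums of 135 and 119 FPKM in Dhps cko and of 121 and 136 FPKM in Dhps flox. The median difference between the Dhps cko replicates over the 39 genes was 0.14 on the log2 scale, larger than the median genotype difference of -0.03.

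Other genes moved with the libraries too. For the counts that follow, 52.2% of all genes tested were higher in Dhps cko. By limma, 4.72% of all genes tested were higher and 2.28% lower at an unadjusted p under 0.05. The 5 primary granule genes summed to 81.3 and 54.5 FPKM in Dhps cko and to 46.3 and 56.5 FPKM in Dhps flox, so that Dhps cko replicate 1 was high and Dhps flox replicate 1 low, and all 5 had a positive log2 fold change with none under an unadjusted p of 0.05. The 12 erythroid markers summed to 748 and 894 FPKM in Dhps cko and to 624 and 928 FPKM in Dhps flox. The defining neutrophil markers were higher in Dhps cko for 10 of 12 genes, 1 of them (*Ly6g*, log2 fold change 0.29) with an unadjusted p under 0.05, and summed to 77530 and 79950 FPKM against 77510 and 73000 FPKM. Monocyte and macrophage markers were higher in Dhps cko for 9 of 10 genes, 6 with an unadjusted p under 0.05 and none with an adjusted p under 0.05, with sums of 394 and 388 FPKM against 322 and 322 FPKM. B cell markers (*Vpreb1* and *Igll1* at or near 0) were higher for all 6 tested of 8, 3 at an unadjusted p under 0.05, with sums of 22.4 and 22.8 FPKM against 13.4 and 17.6 FPKM. T cell markers were higher for 8 of 8, 2 at an unadjusted p under 0.05, with sums of 16.9 and 14.1 FPKM against 11.4 and 7.55 FPKM. Eosinophil markers (*Epx* and *Il5ra* under 0.3 FPKM) were higher for 6 of 6, 2 at an unadjusted p under 0.05, with sums of 13.99 and 12.4 FPKM against 9.32 and 9.06 FPKM. The 5 platelet markers, with *Gp1bb* at 0 in 3 libraries, summed to 3.17 and 2.2 FPKM against 1.66 and 4.37 FPKM. None of these markers had an adjusted p under 0.05. The part of these cells in the levels of the 39 genes was not tested.

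**Figure D3:**
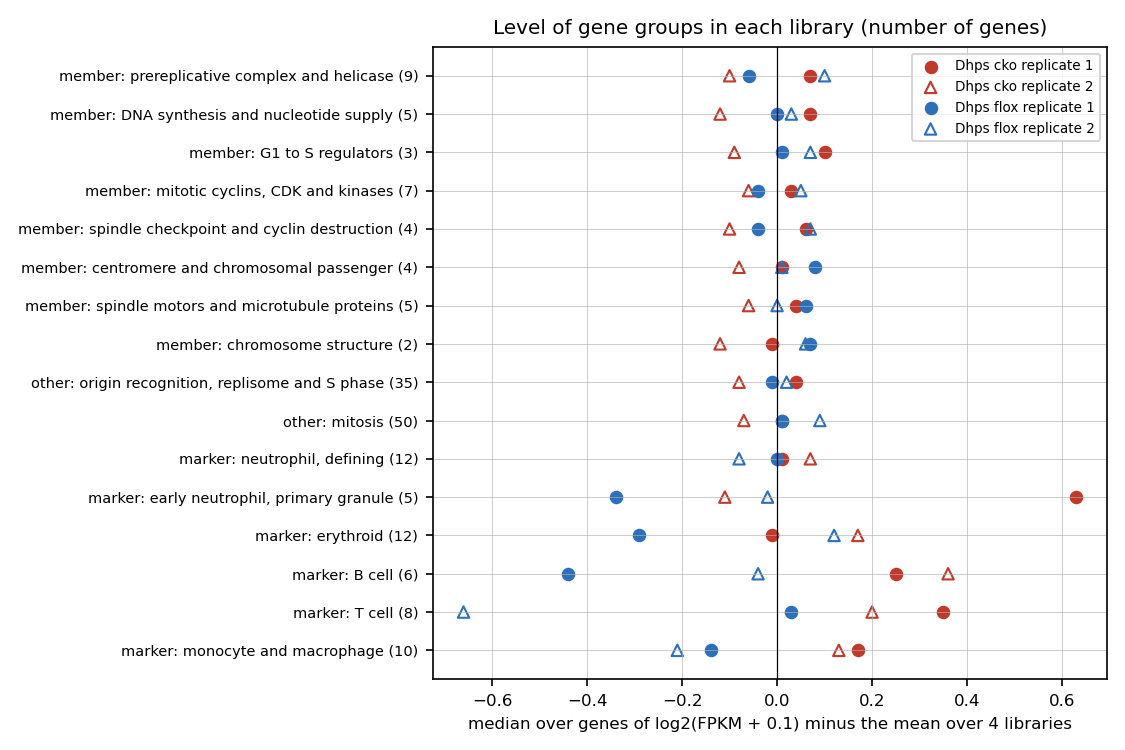
Median over the genes of each group of log2(FPKM + 0.1) in a library minus the mean over the 4 libraries, for the 8 role groups of the 39 genes, other S phase and mitosis genes, and cell type markers (number of genes in parentheses). Dhps cko replicate 2 is lowest in each of the 8 role groups, and the helicase group has Dhps cko replicate 1 and Dhps flox replicate 2 above 0, while primary granule, B cell and T cell markers spread more widely.

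The genotype differences ran with transcript length. Over the 39 genes, the log2 fold change had a Spearman's rho of -0.41 and a Pearson's r of -0.58 with the length of the longest coding transcript in GENCODE M21 (log2 scale for r), given as a description because the genes share the same 4 libraries. The 9 shortest genes, up to 2000 bases, had a median log2 fold change of 0.00, and the 9 longest, from 4355 bases, a median of -0.10. *Cenpf* (11130 bases), *Mki67* (10061 bases) and *Cenpe* (7910 bases) were the longest and had the most negative log2 fold changes. Over 8499 genes in the same FPKM range the rho was -0.37 and the r -0.18, and over 17921 of the genes tested the rho was -0.14 and the r -0.04. In the FPKM range of the list, the 2124 shortest genes had a median of 0.09 and the 2124 longest a median of -0.06. Over 120 other cell cycle genes the rho was -0.32 and the r -0.31, with 18 of the 30 shortest and 5 of the 30 longest higher in Dhps cko. The part of length or RNA quality in these differences was not tested.

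**Figure D4:**
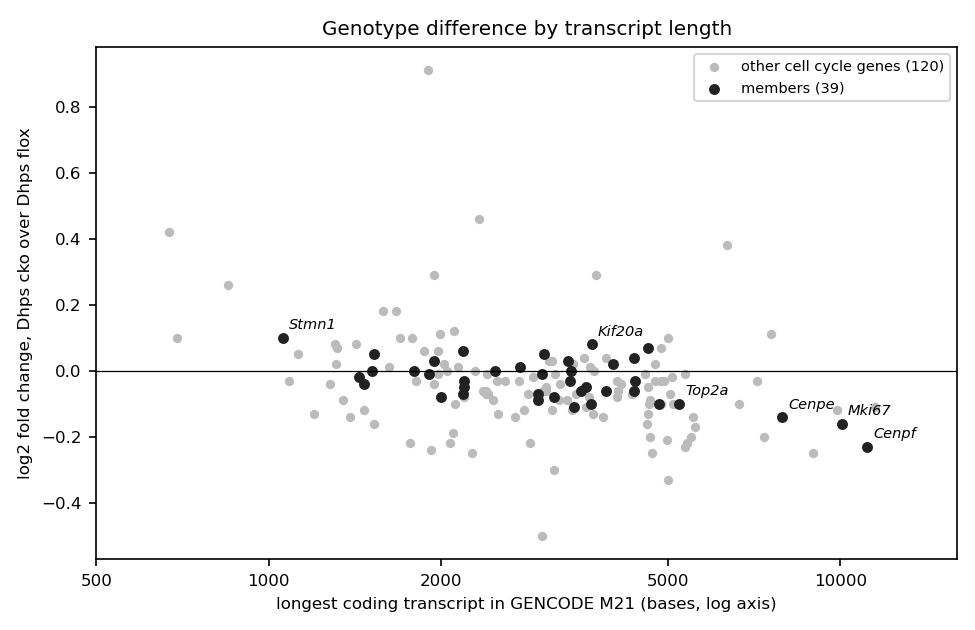
Log2 fold change of Dhps cko over Dhps flox against the length of the longest coding transcript in bases (log axis) for the 39 genes (black) and 120 other cell cycle genes (grey). The longest of the 39, *Cenpe*, *Mki67* and *Cenpf*, lie lowest among them, at -0.14, -0.16 and -0.23.

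A wider list of 122 other cell cycle genes, of which 120 were tested, had no adjusted p under 0.05 by limma and 8 genes with an unadjusted p under 0.05, 4 higher and 4 lower, where 4.72% and 2.28% of all genes tested were. This count was 2 higher and 6 lower under TPM scaling, 4 and 7 with size factors and 4 and 6 with quantile normalization. With the filter at a mean of at least 1 FPKM it was 3 and 6, of 115 tested. It was 3 and 0 without the mean-variance trend and 2 and 2 with a replicate block. With a library left out it was 1 and 2 without Dhps cko replicate 1 or Dhps flox replicate 1, 3 and 0 without Dhps cko replicate 2, and 3 and 4 without Dhps flox replicate 2. Their median log2 fold change was -0.05, with 37 higher and 83 lower, where 52.2% of all genes tested were higher. The split was 25 higher and 95 lower under TPM scaling, 29 and 91 without Dhps cko replicate 1, 59 and 61 without Dhps cko replicate 2, and 51 and 69 without Dhps flox replicate 2. By FPKM, the most abundant S phase gene of this wider list was *Uhrf1*, which brings maintenance methylation to replicated DNA. It was at 25.9 and 21.1 FPKM in Dhps cko and 22.5 and 28.4 FPKM in Dhps flox. The most abundant mitosis gene of the wider list was *Cks2*, a small partner of CDKs. Its values were 56.2 and 58.7 FPKM in Dhps cko and 56.1 and 51.0 FPKM in Dhps flox. *Rpa3*, the small subunit of the single-stranded DNA binding protein, was at 7.43 and 7.96 FPKM in Dhps cko and at 5.54 and 5.89 FPKM in Dhps flox (log2 fold change 0.42, limma adjusted p = 0.488). *Cdkn1c*, which encodes the CDK inhibitor p57, was at 1.88 and 1.38 FPKM in Dhps cko and at 0.91 and 0.72 FPKM in Dhps flox (0.91, limma adjusted p = 0.561). Also higher in Dhps cko at an unadjusted p under 0.05 were *Myc*, a driver of growth and division (1.60 and 1.44 against 1.07 and 1.09 FPKM, log2 fold change 0.46), and *Cks1b*, another CDK partner (19.3 and 17.6 against 14.5 and 16.3 FPKM, 0.26). Lower were *Kif14*, a motor of cytokinesis (5.51 and 5.12 against 6.22 and 6.47 FPKM, -0.25), and *Smc2*, a condensin subunit (25.2 and 24.2 against 29.9 and 27.7 FPKM, -0.22). The checkpoint kinase gene *Ttk* (6.10 and 6.46 against 7.38 and 7.28 FPKM, -0.22) and the pocket protein gene *Rb1* (15.2 and 15.4 against 18.4 and 16.9 FPKM, -0.20) were lower too. The longest coding transcripts of these 8 genes ran from 670 bases (*Rpa3*) to 8943 bases (*Kif14*), and the 4 higher ones, up to 2338 bases, were all shorter than the 4 lower ones, from 2871 bases.

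The regulators upstream of the 39 genes were uneven in level, and those named here beside the most abundant of each list were chosen after their values were seen. Of the D cyclins, which start the cycle in response to growth factors, *Ccnd3* was at 62.2 and 59.4 FPKM in Dhps cko and at 54.6 and 57.7 FPKM in Dhps flox, while *Ccnd1* and *Ccnd2* had means of 0.77 and 1.28 FPKM. *Cdk2*, the partner of cyclins E and A, had a mean of 32.2 FPKM, and *Cdk4* and *Cdk6*, the partners of D cyclins, had means of 5.07 and 2.69 FPKM. Of the E2F family, *E2f2* had a mean of 55.8 FPKM and the repressor *E2f8* a mean of 28.5 FPKM, both above *E2f1*. *Tfdp1*, the DNA-binding partner of E2F proteins, had the highest mean of the 120 genes, 112 FPKM, from 113 and 109 FPKM in Dhps cko and 115 and 112 FPKM in Dhps flox.

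Genes that restrain the cycle were expressed together with those that drive it. *Cdkn2d*, which encodes the CDK4 and CDK6 inhibitor p19, was at 74.4 and 72.0 FPKM in Dhps cko and at 67.4 and 70.6 FPKM in Dhps flox. *Cdkn1b*, which encodes p27, had a mean of 32.4 FPKM and *Cdkn2c* a mean of 20.7 FPKM. *Cdkn1a*, a target of p53, was between 2.23 and 3.29 FPKM, and *Cdkn2a* was listed at 0 in 3 libraries and at 0.13 FPKM in Dhps cko replicate 2. The bulk values do not show whether drivers and inhibitors were in the same cells.

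**Figure D5:**
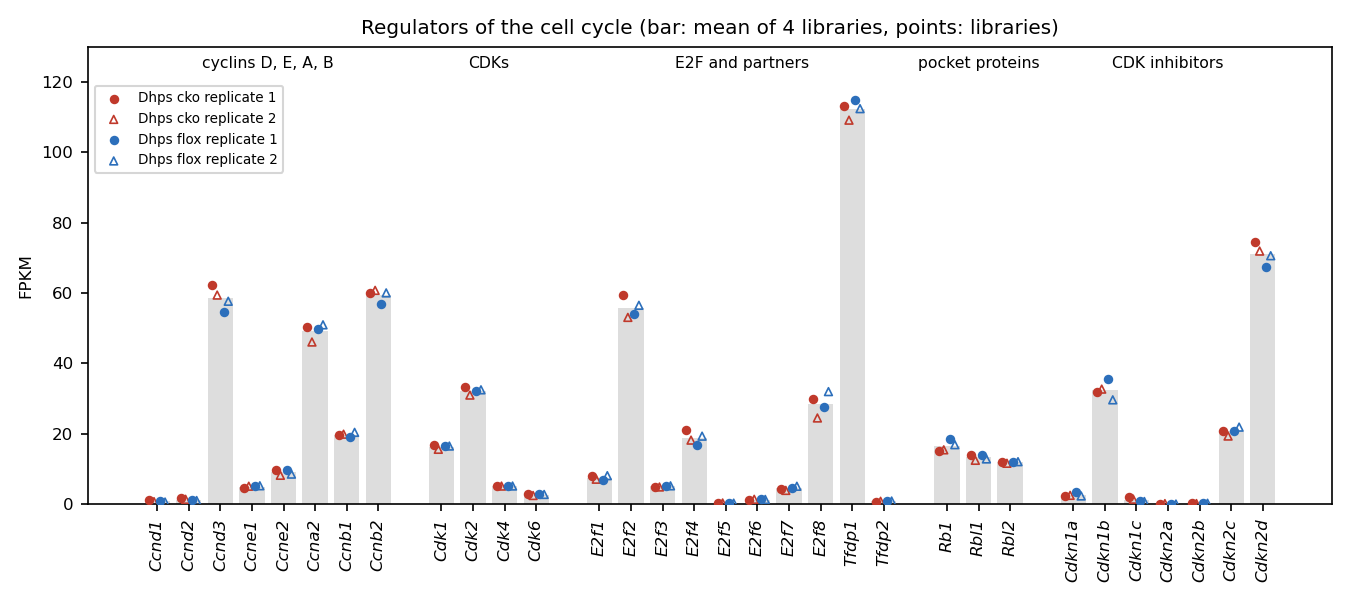
FPKM of cyclins, CDKs, E2F family members and partners, pocket proteins and CDK inhibitors (bars, mean of 4 libraries; points, libraries). *Tfdp1* stands highest at a mean of 112 FPKM, and *Cdkn2d*, *Ccnb2*, *Ccnd3* and *E2f2* are each above 50 FPKM, while *Ccnd1* and *Ccnd2* are under 2 FPKM.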

How the data were processed

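Spleen PMN-MDSCs of 2 Dhps cko and 2 Dhps flox libraries were analysed, with genotype taken from the labels. The authors filtered reads with Cutadapt 1.9, aligned them with HISAT2 2.2.1 (mm10, per the labels), and calculated FPKM per gene with StringTie 2.1.6 and ballgown; the deposited FPKM values are rounded to 2 decimals. The annotation is not given in the sources used here. Of the identifiers, 28511 are in GENCODE M21, from which coordinates and lengths were taken. FPKM carry no counts, so no count test was used and the depth is an estimate from single-exon genes of 200 to 1500 bases; whole reads were not recovered. FPKM are relative within a library, so a few abundant genes lower the rest, and the top 10 genes held 29.9% to 31.4%.

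Genes whose mean reached 0.1 FPKM entered limma (3.58.1, R 4.3.3; lmFit, eBayes with trend) on log2(FPKM + 0.1), with Benjamini-Hochberg adjustment over all 17948 genes and no replicate block. Fold changes on this scale understate those of low genes. The script was tested on simulated data. Python 3.11.15 with pandas 2.3.3, numpy 2.4.6 and matplotlib 3.10.9 was used elsewhere. The members and lists were chosen with earlier results of these data known. Values per library are given for *Mki67*, *Top2a*, *Cdk1*, *Ccnb1*, *Ccna2*, *Pcna*, *Mcm2*, the 5 members highest and the 5 lowest in FPKM, the 5 with the largest absolute log2 fold change and the highest of each role group; of other cell cycle genes, those with an unadjusted p under 0.05 and the most abundant of each list. Alternatives changed the pseudocount, the filter, the scaling (TPM, size factors, quantile) or the variance trend, added a replicate block, or left out a library.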

Additional observations from a re-analysis of the deposited data

How the results depend on the processing

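No member had an adjusted p under 0.05 under any alternative tried, and the lowest was 0.541 (*Cenpe*, limma, without Dhps flox replicate 2). The number with an unadjusted p under 0.05 went from 0 to 1 with median-ratio size factors (*Cenpf*) and to 2 with quantile normalization (*Mki67* and *Top2a*), and ranged from 0 to 2 with a library left out (2 without Dhps cko replicate 1, *Cenpf* and *Mki67*, and 1 each without Dhps flox replicate 1, *Stmn1*, and replicate 2, *Cenpe*). The number higher in Dhps cko went from 13 to 7 under TPM scaling, where 46% of all genes tested were higher against 52.2%, and ranged from 6 to 27 with a library left out. The median log2 fold change of -0.03 ranged from -0.11 (without Dhps cko replicate 1) to 0.03 (without Dhps cko replicate 2). The cause of these moves was not tested. A genotype left with 1 library was assumed to vary like the other.

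Of 198 values of the 22 named members under alternatives that keep all libraries, 7 changed sign. These were *Birc5* under TPM scaling (-0.0030), *Cdc20* under TPM (-0.03), size factors (-0.01) and quantile normalization (-0.03), and *Pcna* under the same (-0.03, -0.01 and -0.04). With a library left out, 20 of 88 changed sign. The log2 fold change then ranged from -0.21 to 0.0006 for *Bub1*, -0.05 to 0.04 for *Ccnb1*, -0.14 to 0.12 for *Ccne2*, -0.08 to 0.08 for *Cdc20*, -0.03 to 0.17 for *Cdc6*, -0.08 to 0.03 for *Cdk1*, -0.15 to 0.01 for *Cdt1*, -0.35 to 0.23 for *Gins2*, -0.12 to 0.05 for *Mcm2*, -0.17 to 0.17 for *Mcm5*, -0.13 to 0.13 for *Pcna*, -0.12 to 0.02 for *Rrm2* and -0.01 to 0.21 for *Stmn1*.

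With the replicate number as a block, 0 members had an adjusted or unadjusted p under 0.05, 13 were higher and the median was -0.03. The paper calls the genotypes littermates, and the sources do not say whether same-numbered libraries were paired. Their deviations from the group means had an r of -0.0567 over 10629 genes. A correlation over genes from so few libraries cannot decide whether they shared a litter or batch. FPKM give only an estimate of depth, so the counting error of each value is unknown.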
